A study of Mus musculus with 6 samples.

Results

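The miR-199 and miR-214 microRNAs were examined as the 6 mature mouse arms mmu-miR-199a-5p, mmu-miR-199a-3p, mmu-miR-199b-5p, mmu-miR-199b-3p, mmu-miR-214-5p and mmu-miR-214-3p, selected by name from the 1034 mature miRNAs of the deposited table. All 6 were present. For a name listed at more than 1 genomic copy the row with the highest total was kept, so miR-199a-3p was read at its chromosome 1 copy and miR-199a-5p at its chromosome 9 copy. The libraries came from nephron progenitor cells of CD1 mice, taken from litters at embryonic stage E14.5 or on the day of birth (P0), with 3 litter pools for each and no genetic change or treatment named in the labels. Kidneys of a litter (at most 24) were pooled and digested for 15 minutes, and cells carrying the surface integrin Itga8 were captured on magnetic beads, so each value is a mean over all cells that the beads retained. The table holds miRNAs alone, and the progenitor marker transcripts Six2, Cited1 and Itga8 were not analysed here. In bulk samples of this kind, fewer cells of a type and less of a miRNA per cell cannot be told apart.

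MicroRNAs are cut from a hairpin precursor whose arms, 5p and 3p, can each be loaded into Argonaute, and the loaded strand recognises messenger RNAs mainly through its seed, bases 2 to 8. miR-199a and miR-214 are processed from Dnm3os, a noncoding RNA transcribed opposite the dynamin gene Dnm3 and activated in embryonic mesenchyme by the transcription factor Twist1. Both miRNAs are widely used as marks of mesenchymal and fibroblast-type cells, and miR-214 is studied in kidney fibrosis.

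The name Dnm3os covers only some of these hairpins. In the annotation of build GRCm38 (mm10, the build in the submitters' processing notes), the Mir199a-2 hairpin (chr1:162217814-162217923, plus strand) and the Mir214 hairpin (chr1:162223368-162223477, plus strand) lie 5444 bases apart. The mature arms of both lie in an exon of Dnm3os and in an intron of Dnm3 on the opposite strand. A second copy, Mir199a-1 (chr9:21496495-21496564, minus strand), lies opposite an intron of Dnm2, and Mir199b (chr2:32318460-32318569, plus strand) lies opposite an intron of Dnm1. The miR-214 arms are therefore the sole members whose position lies in Dnm3os alone. The 2 miR-199a copies give the same mature arms, and miR-199b comes from another chromosome.

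RefSeq (GRCm38.p6) gave a mature sequence for 5 of the 6 members, shown to make clear which members share a seed or a whole sequence. Capitals mark the seed.
miR-199a-5p: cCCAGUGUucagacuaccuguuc
miR-199a-3p: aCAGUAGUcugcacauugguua
miR-199b-3p: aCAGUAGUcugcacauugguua
miR-214-5p: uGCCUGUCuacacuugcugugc
miR-214-3p: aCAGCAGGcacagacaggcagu
miR-199a-3p and miR-199b-3p had the same sequence, so reads of the mature arm alone cannot be told apart by sequence. Their values are not separate evidence, although the counts of members below hold both names. Among the 885 names of the table with a RefSeq sequence, no other miRNA carried the seed of one of these 5 members. The member without a sequence, miR-199b-5p, was not part of this search, so its seed was not compared with that of miR-199a-5p. The Mir214 hairpin is printed whole because both of its arms were measured at comparable levels, with the 5p and then the 3p arm in capitals.
Mir214: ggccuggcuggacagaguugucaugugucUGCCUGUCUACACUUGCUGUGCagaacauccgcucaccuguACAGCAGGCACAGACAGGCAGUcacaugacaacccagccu

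The libraries held 2649506 to 23691028 recovered reads at E14.5 and 21508833 to 34934526 at P0. At least 853 reads lay behind every value of a member. P0 replicate 1 stood apart from the other P0 libraries in several results below, where its values are given by library. The deposited unit is TPM, reads per base of mature sequence scaled to a sum of 1000000 per library. In TPM the 670 miRNAs averaging 1 TPM or more had a median that changed by −1.20 on the log2 scale from E14.5 to P0, and by −0.17 after size-factor scaling, in which each library is divided by its median ratio to the mean library. Both scalings are therefore given for levels. Ratios of members within a library do not depend on this choice.

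Both arms of miR-214 were 7.82 times (3p) and 9.01 times (5p) lower in mean TPM at P0 than at E14.5, while the means of the miR-199 arms were 1.77 to 2.36 times lower, close to the median miRNA. The miR-214-3p level in E14.5 replicates 1, 2 and 3 was 645, 404 and 863 TPM, against 43.2, 100.5 and 100.9 TPM in the same order at P0. The stages did not overlap, and P0 replicate 1 was the lowest library. Its mean went from 637 ± 229 to 81.5 ± 33.2 TPM (SD, n = 3), a log2 change of −2.98 (SE 0.58, 95% interval −4.24 to −1.73, limma adjusted p = 0.0048). The miR-214-5p level was 459, 176 and 475 TPM in the E14.5 replicates and 39.3, 38.4 and 45.6 TPM in the P0 replicates. Here the 3 P0 libraries lay within a few TPM of each other, and E14.5 replicate 2 was the lowest of its stage for both arms. The mean of miR-214-5p went from 370 ± 168 to 41.1 ± 3.90 TPM (SD, n = 3), a log2 change of −3.01 (SE 0.58, 95% interval −4.27 to −1.76, limma adjusted p = 0.0048). After size-factor scaling the log2 changes were −1.70 for miR-214-3p (95% interval −3.003 to −0.41, limma adjusted p = 0.0777) and −1.74 for miR-214-5p (−2.90 to −0.58, limma adjusted p = 0.0573), both above the threshold of 0.05. Without P0 replicate 1 they were −1.13 (limma adjusted p = 0.0227) and −1.54 (limma adjusted p = 0.0199) on that scale, and both passed. Neither arm passed on that scale when any other single library was left out. The limma adjusted p was then 0.101 to 0.247 for miR-214-3p and 0.0591 to 0.225 for miR-214-5p. Of all 670 changes in TPM, 8.96% were lower than that of miR-214-3p and 8.36% lower than that of miR-214-5p, and after size-factor scaling these shares were 12.4% and 11.6%.

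miR-199a-3p was the most abundant member and ranked first of 1034 names in each E14.5 library and 7th, 10th and 8th in P0 replicates 1, 2 and 3. Its level was 58949, 62646 and 73064 TPM at E14.5 and 31388, 25906 and 31046 TPM at P0. The stages did not overlap, and the log2 change was −1.14 (SE 0.37, limma adjusted p = 0.0345) in TPM and 0.15 (SE 0.40, limma adjusted p = 0.833) after size-factor scaling. Its call in TPM held in the fit without P0 replicate 1 (−1.19, limma adjusted p = 0.00148) and was lost when any other library was left out (limma adjusted p of 0.0766 to 0.138). This call was read at the chromosome 1 row. The chromosome 9 row of this name had 39791, 40042 and 47425 TPM at E14.5 and 20103, 23555 and 28135 TPM at P0. These values lie close to those of miR-199b-3p, which was not called with all libraries, and no fit of this row's level was made. In the authors' deposited table the chromosome 9 row had a log2 fold change of 0.59 (authors' adjusted p = 0.509). miR-199b-3p, with the same sequence, had 39567, 39834 and 47177 TPM at E14.5 and 19997, 23461 and 28033 TPM at P0. Its log2 change was −0.83 (SE 0.38, limma adjusted p = 0.102) in TPM and 0.45 (SE 0.44, limma adjusted p = 0.484) after size-factor scaling, and without P0 replicate 1 it passed with opposite signs, at −0.71 in TPM (limma adjusted p = 0.0249) and 0.75 after size-factor scaling (limma adjusted p = 0.0318). The sign for these 3p arms, whose change in TPM lay near that of the median miRNA, thus turned with the scaling, which moves all miRNAs together.

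The 5p arms of miR-199 were less abundant, and their rows differed in level between miR-199a and miR-199b. No miR-199b-5p sequence was at hand, so how far reads of these arms can be told apart was not checked. miR-199a-5p had 4937, 3825 and 6300 TPM at E14.5 and 1451, 2419 and 2511 TPM at P0. P0 replicate 1 was the lowest, and the log2 change was −1.25 (SE 0.47, limma adjusted p = 0.0559) in TPM and 0.035 (SE 0.49, limma adjusted p = 0.961) after size-factor scaling. Without that library it passed in TPM, at −0.997 (limma adjusted p = 0.0108), and was at 0.46 after size-factor scaling (limma adjusted p = 0.162). miR-199b-5p had 778, 990 and 935 TPM at E14.5 and 679, 241 and 251 TPM at P0. Here P0 replicate 1 was the highest of its stage and lay just under the E14.5 range. The log2 change of miR-199b-5p was −1.38 (SE 0.55, limma adjusted p = 0.0684) in TPM and −0.092 (SE 0.43, limma adjusted p = 0.894) after size-factor scaling. With upper-quartile scaling it was 0.042 (limma adjusted p = 0.954). Without P0 replicate 1, miR-199b-5p reached −1.86 in TPM (limma adjusted p = 0.000254) and −0.41 after size-factor scaling (limma adjusted p = 0.234).

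In TPM, 3 of the 6 members passed the threshold, all lower at P0, in a table where 32.8% of the 670 tested miRNAs were called lower and 1.34% higher. Counts of members in this paragraph hold miR-199a-3p and miR-199b-3p as 2 names of 1 sequence, which are not separate evidence. The miR-199a-3p values are those of its chromosome 1 row. The stages did not overlap for any of the 6 members, all lower at P0, where 46.4% of all tested miRNAs were lower and 3.13% higher without overlap. After size-factor scaling the stages overlapped for the 4 miR-199 arms and stayed apart for the 2 miR-214 arms, where 19.6% of all miRNAs were lower and 15.8% higher without overlap. After size-factor scaling 0 of the 6 passed by limma, against 5.22% of all miRNAs called lower and 5.67% called higher. At that scaling limma-voom also called 0 of the 6 and 28 miRNAs in all, with 1.64% called lower and 2.54% higher over all miRNAs. In the limma fit the unadjusted p was 0.0151 for miR-214-3p, 0.00727 for miR-214-5p and 0.329 to 0.945 for the miR-199 arms. The share of all miRNAs with an unadjusted p under 0.05 in that fit is not given here, so these values have no background beside them. Without P0 replicate 1, 6 of 6 passed in TPM, all lower, while 53.0% of the 689 miRNAs tested were called lower and 7.98% higher. In that fit after size-factor scaling 3 of 6 passed, the miR-214 arms lower and miR-199b-3p higher, while 26.6% of all miRNAs were called lower and 21.6% higher, so the members' share was near the background. Over all miRNAs the number of calls changed with each library left out. From 229 in TPM the number called by limma went to 111, 158 and 72 without E14.5 replicates 1, 2 and 3 and to 420, 115 and 134 without P0 replicates 1, 2 and 3. From 73 after size-factor scaling it went to 0, 7 and 0 and to 332, 0 and 2 in the same order, and the 3 fits with 0 calls held 141, 140 and 150 miRNAs with an unadjusted p under 0.05. No other tool was run on these fits. In the authors' deposited table, the log2 fold change was −1.26 for miR-214-3p (standard error 0.59, adjusted p = 0.124) and −1.23 for miR-214-5p (standard error 0.60, adjusted p = 0.138). For the miR-199 rows used here, the authors' deposited table gave 0.33, 0.22, −0.28 and 0.59 for miR-199a-5p, miR-199a-3p, miR-199b-5p and miR-199b-3p, with adjusted p of 0.726, 0.837, 0.775 and 0.509.

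**Figure D1:**
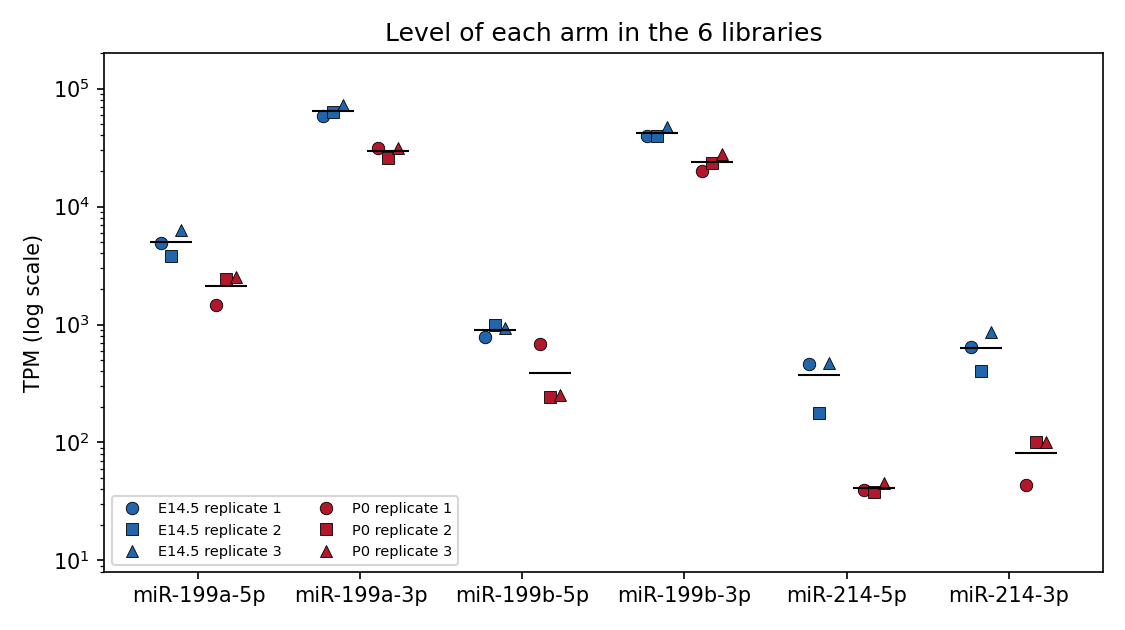
TPM of each arm on a log axis, with points for the 3 E14.5 and 3 P0 libraries and a black line at each stage mean. The miR-214 arms are the least abundant and show the widest gap between stages, from 637 to 81.5 TPM for miR-214-3p, and P0 replicate 1 is the highest P0 library for miR-199b-5p and the lowest for miR-199a-5p.

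**Figure D2:**
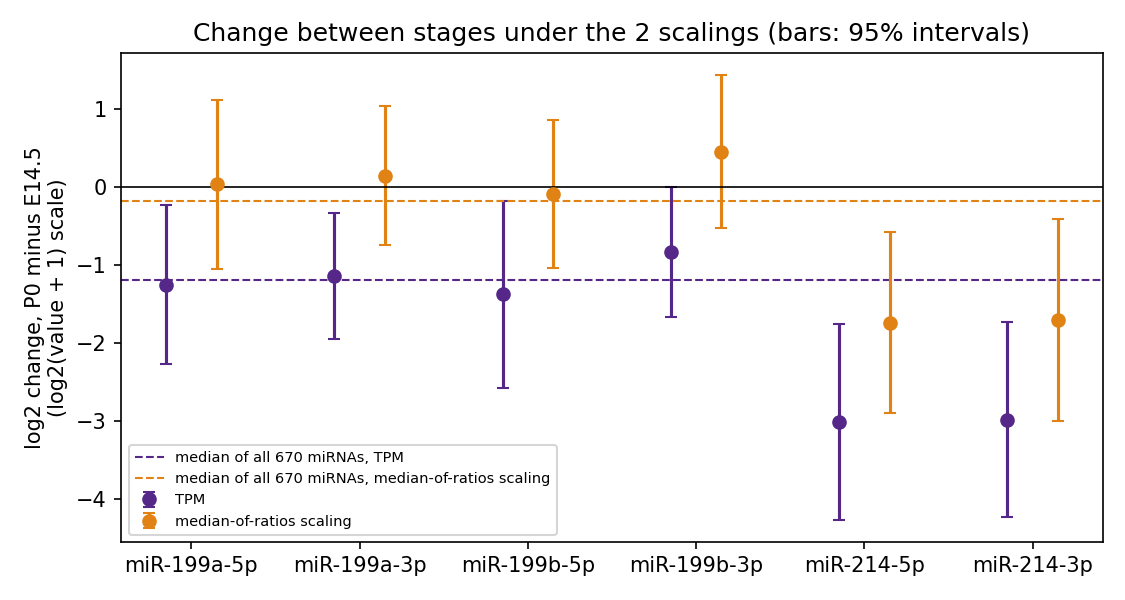
The log2 change from E14.5 to P0 per member in TPM and after size-factor scaling, with 95% limma intervals and dashed lines at the median of all 670 miRNAs under each scaling. The miR-199 arms lie near the median line of their scaling, whereas the miR-214 arms lie below it under both, at −2.98 and −3.01 in TPM and −1.70 and −1.74 after size-factor scaling.

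The order of levels was the same in each of the 6 libraries. It ran from miR-199a-3p through miR-199b-3p, miR-199a-5p, miR-199b-5p and miR-214-3p down to miR-214-5p. At E14.5 the neighbours miR-199b-5p (778 to 990 TPM) and miR-214-3p (404 to 863 TPM) overlapped, as did miR-214-3p and miR-214-5p (176 to 475 TPM). At P0 the neighbours that overlapped were miR-199a-3p (25906 to 31388 TPM) with miR-199b-3p (19997 to 28033 TPM), and miR-214-3p (43.2 to 100.9 TPM) with miR-214-5p (38.4 to 45.6 TPM).

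Within a library the amount of miR-214-3p per miR-199a-5p was lower at birth, a comparison that needs no scaling between libraries. The ratio was 0.131, 0.106 and 0.137 in the E14.5 replicates and 0.0298, 0.0415 and 0.0402 in the P0 replicates. Every E14.5 library exceeded every P0 library, and P0 replicate 1 did not stand on the E14.5 side. On the log2 scale the mean ratio went from −3.01 ± 0.20 to −4.75 ± 0.25 (SD, n = 3), a difference of −1.73. By an exact permutation test (two-sided) p was 0.1, the least that 3 libraries against 3 can give (0.3 after Benjamini-Hochberg adjustment over 3 ratios), so this test cannot bring the comparison under 0.05. No model-based test was run on this ratio. The ratio of miR-214-5p to miR-199a-5p was 0.0930, 0.0461 and 0.0754 at E14.5 and 0.0271, 0.0159 and 0.0181 at P0, again without overlap. The miR-199a-3p level was 91.3, 155 and 84.7 times that of miR-214-3p in the E14.5 replicates and 726, 258 and 308 times in the P0 replicates, values given without a test.

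The ratio of the miR-199a-5p row to the miR-199b-5p row split the P0 libraries. Whether reads were fully separated between these rows was not checked. miR-199a-5p exceeded miR-199b-5p 6.34, 3.86 and 6.74 times in the E14.5 replicates. The excess was 2.14, 10.03 and 10.02 times in P0 replicates 1, 2 and 3. Replicates 2 and 3 thus lay above, and replicate 1 below, the range of the E14.5 libraries. The mean log2 ratio of the E14.5 libraries was 2.45 ± 0.44, and that of the P0 libraries 2.58 ± 1.28 (SD, n = 3; exact two-sided permutation p = 1, adjusted 1). Without P0 replicate 1 the difference between stages was 0.87 on the log2 scale, and with all libraries it was 0.12.

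The 3p row held more than the 5p row for both miR-199 names, whereas the miR-214 arms were of similar abundance. For miR-199a the 3p arm exceeded the 5p arm 11.9, 16.4 and 11.6 times in the E14.5 replicates and 21.6, 10.7 and 12.4 times in the P0 replicates. The 3p to 5p ratio of miR-199b was 50.8, 40.2 and 50.4 at E14.5 and 29.5, 97.3 and 112 at P0. The 3p rows of miR-199a and miR-199b share a sequence, so the numerator of each of these ratios can hold reads of either name and neither measures arm choice at 1 hairpin. For miR-214 the ratio was 1.41, 2.29 and 1.82 at E14.5 and 1.10, 2.62 and 2.21 at P0. In each hairpin the stages overlapped, and P0 replicate 1 lay outside the range of the other 5 libraries.

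Arm ratios were tested across all 207 hairpin names with both arms at a mean of at least 1 TPM. The log2 change of the 3p to 5p ratio was 0.11 for miR-199a (95% interval −0.62 to 0.85, limma adjusted p = 0.806), 0.54 for miR-199b (−0.67 to 1.76, limma adjusted p = 0.454) and 0.028 for miR-214 (−1.09 to 1.15, limma adjusted p = 0.988). Equal arm ratios at both stages were thus not shown. None of the 3 was called, and limma called 0 of all 207 ratios at the same threshold (0.0% higher and 0.0% lower), although 59 had an unadjusted p under 0.05. No other tool was run on arm ratios. Without P0 replicate 1, 91 of 213 ratios were called, among them that of miR-199b at 1.15 (SE 0.19, limma adjusted p = 0.00331), while miR-199a was at −0.19 (limma adjusted p = 0.428) and miR-214 at 0.40 (limma adjusted p = 0.346).

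**Figure D3:**
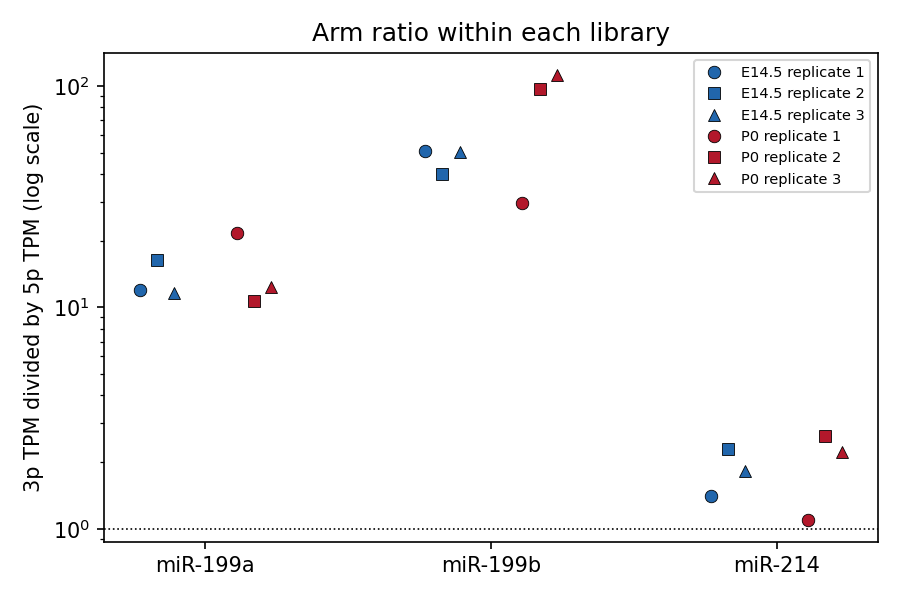
The 3p to 5p ratio of TPM within each library on a log axis for the 3 hairpin names, with the dotted line at equal arms. The 2 stages overlap for each hairpin, and P0 replicate 1 is the highest library for miR-199a at 21.6 and the lowest for miR-199b at 29.5 and for miR-214 at 1.10.

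The shared 3p sequence was listed at 3 positions, and the row of the Dnm3os copy held more reads than the others. The following stretches are printed because they show the first base at which the copies differ, position 24 counted from the first base of the mature 3p arm, which is 22 bases long. Each stretch is the RefSeq 3p sequence with the 3 bases that follow it in the hairpin, and the capital marks the differing base.
Mir199a-2: acaguagucugcacauugguuagAc
Mir199a-1: acaguagucugcacauugguuagGc
Mir199b: acaguagucugcacauugguuagGc
The Mir199b row held 99.4% to 99.6% of the reads of the Mir199a-1 row in every library; whether these were the same reads was not measured. Of the reads in the Mir199a-2 row, 32.5%, 36.1% and 35.1% in the E14.5 replicates exceeded the count of the Mir199a-1 row (95% Wilson intervals 32.3 to 32.7, 36.0 to 36.2 and 34.9 to 35.2, covering counting error only). In the P0 replicates this surplus was 36.0%, 9.08% and 9.38% (95% Wilson intervals 35.9 to 36.0, 9.002 to 9.15 and 9.31 to 9.45). P0 replicate 1 thus lay within the E14.5 range, and P0 replicates 2 and 3 lay far below it. The surplus was 19157, 22604 and 25639 TPM at E14.5 and 11285, 2351 and 2911 TPM at P0. Which reads made it up, and how reads with several genomic matches were counted, is not given in the sources used here. The surplus was examined after its values were seen and was not tested. The miR-199a-3p to miR-199b-3p ratio, which contains the surplus, was 1.49, 1.57 and 1.55 at E14.5 and 1.57, 1.10 and 1.11 at P0 (exact two-sided permutation p = 0.3, adjusted 0.45 over 3 ratios). The difference in its log2 mean was −0.31 with all libraries and −0.47 without P0 replicate 1. The 5p rows of the Mir199a-2 and Mir199a-1 copies differed far less, with the former holding 99.82% to 99.95% of the reads of the latter. Unequal rows were common, since among 49 names with several copies and a mean of at least 1 TPM the lowest row held under 90% of the reads of the highest in 24, and for miR-199a-3p it held 71.9%. With both arms of miR-199a read at the chromosome 9 copy, which lacks the surplus, the 3p to 5p ratio was 8.06, 10.5 and 7.53 at E14.5 and 13.9, 9.74 and 11.2 at P0, a log2 change of 0.42 (95% interval −0.091 to 0.92, limma adjusted p = 0.227).

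**Figure D4:**
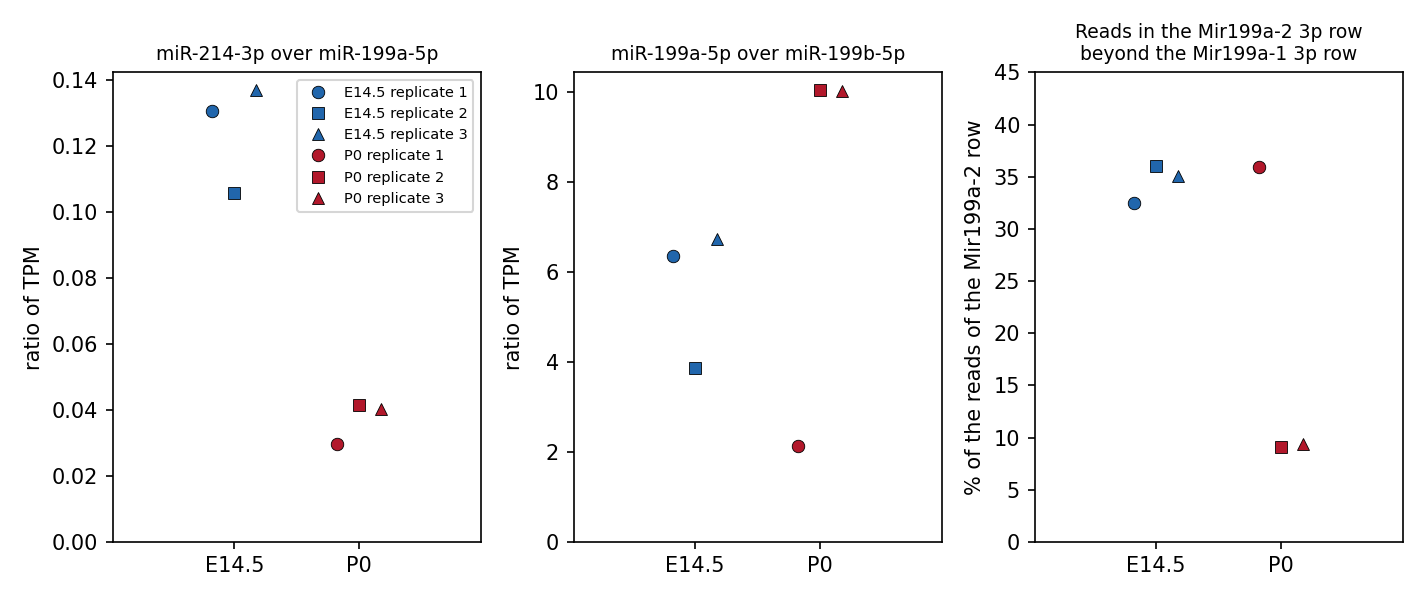
Ratio of miR-214-3p to miR-199a-5p, ratio of miR-199a-5p to miR-199b-5p, and the surplus of reads in the Mir199a-2 3p row over the Mir199a-1 3p row as a percentage of the former, each by library. The miR-214-3p to miR-199a-5p ratio separates the stages (at least 0.106 against at most 0.0415), whereas P0 replicate 1 departs from P0 replicates 2 and 3 in the other panels.

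The miRNAs nearest in pattern were sought among 426 other miRNAs averaging 10 TPM or more, by the root mean square difference of mean-centred log2(TPM + 1) over the 6 libraries. Nearest to miR-199a-3p were miR-369-5p (difference 0.16), miR-125b-2-3p (0.17) and miR-329-5p (0.17), against a median of 0.85 over the candidates. miR-199b-3p stood at 0.23 from miR-199a-3p, and miR-199a-5p at 0.35, farther than these 3. Nearest to miR-214-3p were miR-139-5p (0.40), miR-106a-5p (0.43) and miR-379-3p (0.44), against a median of 1.36. The partner arm miR-214-5p stood at 0.43 from miR-214-3p. miR-199a-5p stood at 0.89 from miR-214-3p and miR-199a-3p at 1.06, farther than the 3 nearest other miRNAs. These values describe 6 libraries that share stage and scaling, and no test was made.

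Of 26 listed miRNAs that mark other cell types, 13 were lower and 1 higher at P0 in TPM (limma), and 4 were lower and 4 higher after size-factor scaling. Over all 670 miRNAs the shares were 32.8% lower and 1.34% higher in TPM and 5.22% lower and 5.67% higher after size-factor scaling. Single libraries moved the listed counts. In TPM 8, 13 and 6 were lower and 0, 1 and 0 higher by limma without E14.5 replicates 1, 2 and 3, and 18, 9 and 11 were lower and 3, 1 and 1 higher without P0 replicates 1, 2 and 3. After size-factor scaling 0, 2 and 0 were lower and 0, 1 and 0 higher without the E14.5 replicates, and 10, 0 and 0 lower and 5, 0 and 1 higher without the P0 replicates. The 3 fits with no listed call, those without E14.5 replicate 1, E14.5 replicate 3 or P0 replicate 2, held 9, 10 and 11 listed miRNAs with an unadjusted p under 0.05. Of 4 mesenchymal and smooth muscle arms, those of miR-143 and miR-145a, 3 were lower at P0 in TPM (limma) and 0 after size-factor scaling. Their median log2 change was −2.25 in TPM, between those of the miR-199 and the miR-214 arms, and −0.97 after size-factor scaling. Their summed level was 17539 to 29231 TPM at E14.5, against 13108, 4985 and 11693 TPM at P0 in replicate order. The most abundant of them, miR-143-3p, was the one not called (limma adjusted p = 0.0655 in TPM) and had means of 20510 ± 5421 and 9396 ± 4005 TPM (SD, n = 3) at the earlier and later stage, and miR-145a-5p of 1410 ± 425 and 366 ± 271 TPM. The endothelial miR-126a arms were lower in 2 of 2 cases in TPM and 1 of 2 after size-factor scaling, with summed levels of 26608 to 44921 TPM at E14.5, against 8158, 5634 and 8116 TPM at P0. All 5 epithelial miR-200 family miRNAs were lower in TPM and 3 after size-factor scaling, and they summed to 4122 to 23183 TPM at E14.5, against 1542, 500.2 and 872 TPM at P0. E14.5 replicate 2 was the lowest E14.5 library in the sums of all 7 lists, as it was for miR-214. P0 replicate 1 was the highest P0 library in 6 of the 7 sums, all but the erythroid one, and the lowest for miR-214-3p. Of the remaining 15 listed miRNAs (matrix-related miR-29 and miR-21a, cartilage miR-140, erythroid and leukocyte), 3 were lower and 1 higher in TPM and 0 were lower and 4 higher after size-factor scaling, miR-140-3p being higher under both. Among them, the 4 fibroblast and matrix miRNAs had a median log2 change of −0.31 in TPM and 0.95 after size-factor scaling. Both medians lay above those of all 670 miRNAs (−1.20 and −0.17). Of these 4, 1 was lower in TPM, miR-21a-5p (−2.54, limma adjusted p = 0.0101), and another was higher after size-factor scaling (limma). No listed miRNA was at 0 in all libraries. What part other cell types had in the levels of miR-199 and miR-214 was not tested.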

How the data were processed

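Small RNA libraries (QIAseq miRNA kit, per the labels' protocols) were analysed from 6 samples. The authors deposited TPM values per mature miRNA and position, with baseMean (a normalised signal), log2 fold changes, a test statistic (a score) and p-values per the file headers. featureCounts, DESeq2 1.26.0 and build mm10 are named in the submitters' processing notes; trimming, aligner, multi-mapping and molecular tags are not given in the sources used here. The deposited TPM times the end minus the start gave whole multiples of 1 step per library in 100.0% of values (tolerance 0.05), read as reads.

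Of 1104 rows, 1 per name was kept (1034 names). Tests used limma 3.58.1 in R 4.3.3, the variance trended on level, on log2(TPM + 1), stage as the only term, over miRNAs with a TPM averaging at least 1, Benjamini-Hochberg threshold 0.05. Fold changes are on the log2(TPM + 1) scale, which understates changes of low miRNAs. Arm ratios were fitted the same way, with the variance trend on the mean level of both arms. Between-member ratios had exact permutation tests. Scripts were tested on simulated data. Named neighbours were the 3 nearest to miR-199a-3p and to miR-214-3p, and of each list that is described singly the 2 most abundant members could be named. Members and lists were chosen with earlier results of these data known. Alternatives were scaling (median-of-ratios, called size-factor scaling, and upper-quartile), limma-voom on recovered reads, filters (none, 10 TPM), a pseudocount of 0.1, summed rows, a replicate block and leaving out each library. The samples were litter pools, so p-values measure the spread between pools.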

Additional observations from a re-analysis of the deposited data

How the results depend on the processing

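Filters, pseudocount and summed rows kept the direction of all 6 levels, and 1 call was lost, that of miR-199a-3p with no filter (−1.14, limma adjusted p = 0.0816). Changes of scaling had larger effects. With size-factor scaling, upper-quartile scaling and limma-voom on recovered reads, miR-199a-5p was at 0.035, 0.17 and 0.025, miR-199a-3p at 0.15, 0.28 and 0.14, and miR-199b-3p at 0.45, 0.59 and 0.44, all reversed from TPM. Such scaling divides a whole library by 1 factor, so a change near the median of all miRNAs can turn sign by construction. miR-199b-5p reversed with upper-quartile scaling (0.042). The miR-214 arms kept their direction without passing, at −1.74, −1.61 and −1.73 for miR-214-5p and −1.70, −1.57 and −1.73 for miR-214-3p. The called counts among the 26 listed cell type miRNAs went from 13 lower and 1 higher in TPM to 4, 3 and 2 lower and 4, 4 and 3 higher under the same 3 settings. The cause was not tested.

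The replicate block changed no call on a member. Same-numbered libraries had correlations of deviations of 0.19, 0.18 and 0.042, and P0 replicate 3 correlated best with E14.5 replicate 2 (0.077). Deviations from the mean of 3 libraries are tied to each other, so these correlations cannot decide whether samples are paired. The labels name no pairing, and the numbers were not taken to pair samples. With the replicate block, 247 miRNAs were called in TPM in place of 229, with miR-214-3p at −2.98 (limma adjusted p = 0.00433), and with size-factor scaling 67 in place of 73. The block with that scaling gave the same member values (0.035, 0.15, −0.092, 0.45, −1.74 and −1.70) and 4 lower and 4 higher listed miRNAs, and in TPM the block gave 15 lower in place of 13 and 1 higher as before.

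Leaving out 1 library at a time gave, in TPM, ranges of −1.43 to −0.997 (miR-199a-5p), −1.21 to −1.05 (miR-199a-3p), −1.86 to −1.12 (miR-199b-5p), −0.96 to −0.71 (miR-199b-3p), −3.48 to −2.77 (miR-214-5p) and −3.28 to −2.58 (miR-214-3p). With size-factor scaling the ranges were −0.17 to 0.46 (miR-199a-5p), 0.039 to 0.27 (miR-199a-3p), −0.41 to 0.085 (miR-199b-5p), 0.26 to 0.75 (miR-199b-3p), −2.15 to −1.52 (miR-214-5p) and −1.99 to −1.13 (miR-214-3p). Both miR-214 arms passed in TPM in all 6 such fits, and with size-factor scaling in the fit without P0 replicate 1 alone. The arm ratios ranged over −0.19 to 0.32 (miR-199a), 0.19 to 1.15 (miR-199b) and −0.22 to 0.40 (miR-214), reversing for miR-199a without P0 replicate 1 (−0.19) and for miR-214 without E14.5 replicate 1 (−0.15), P0 replicate 2 (−0.22) or P0 replicate 3 (−0.099). Between-member ratios ranged over −0.25 to 0.87 (miR-199a-5p to miR-199b-5p), −0.47 to −0.22 (the 3p rows) and −1.85 to −1.59 (miR-214-3p to miR-199a-5p). Listed calls ranged over 6 to 18 lower and 0 to 3 higher in TPM and over 0 to 10 lower and 0 to 5 higher with size-factor scaling.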
